A study of Mus musculus with 6 samples.

Results

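*Egr1*, *Egr2*, *Egr3*, *Ier2*, *Ier3*, *Ier5*, *Nr4a1*, *Nr4a2* and *Nr4a3* are immediate early genes of 3 families. Their mRNA levels were compared between smooth muscle cell cultures from Pdk4SMKO mice, bred to lose *Pdk4* in smooth muscle, and from Pdk4fl/fl mice. The 9 genes were chosen by name, and each was found as 1 of the 41721 genes in the table of counts. In Pdk4SMKO cells, *Egr1*, *Egr2*, *Ier2* and *Ier5* were lower, and *Egr3*, *Nr4a2* and *Nr4a3* were higher. *Egr3* was nearly absent from Pdk4fl/fl cells, so its higher level was a condition of its being tested. After normalization *Nr4a1*, the most abundant NR4A transcript, differed by less than the SD of the Pdk4fl/fl cultures. That depends on the scaling, since with library size alone its log2 fold change was 0.75. *Ier3* had 2.00 times the Pdk4fl/fl level, just short of the fold change required for a call.

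Immediate early genes are transcribed from factors already present in the cell, so their mRNAs appear soon after a stimulus and decay quickly. Growth factors, stress and angiotensin II (Ang II) reach them through kinase cascades, the serum response factor SRF bound at CArG boxes, and CREB bound at cyclic AMP response elements. The EGR proteins are zinc finger transcription factors that bind GC-rich promoters, and EGR1 is known as an early response of the vessel wall to injury. The NR4A proteins are orphan nuclear receptors whose activity follows their abundance, and of the IER proteins, IER2 and IER5 are relatives that act in the nucleus, whereas IER3 (IEX-1) is unrelated to them and is known as a regulator of cell survival.

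The cells were aortic smooth muscle cells, taken from the abdominal segment in 10-week-old mice and grown to passage 4 to 8. They were treated with Ang II, for which the study's methods give 1 μM and 48 h. For work in culture the methods also give serum starvation for 48 h, a statement not tied to the RNA sequencing by name. In both groups loxP sites flank exons 4, 5 and 6 of *Pdk4* on a C57BL/6J background, and the methods state that mice of both genotypes received tamoxifen. Pdk4SMKO mice carry in addition a tamoxifen-inducible, Y-linked *Myh11*-Cre, active in smooth muscle, whereas Pdk4fl/fl mice carry no Cre. There were 3 libraries per genotype and none without Ang II, so a response to Ang II was not measured. The labels do not say whether each culture came from a separate mouse, and p-values measure the spread between these 6 libraries.

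Each library held 16526044 to 22481670 counted reads. A count of 3, taken as the limit of detection, corresponded to 0.132 to 0.227 CPM (counts scaled to the library total after TMM normalization), a limit that covers counting error alone. *Pdk4* itself had 570, 639 and 421 counts in Pdk4fl/fl and 110, 182 and 141 in Pdk4SMKO libraries, a log2 difference of -2.34 ± 0.22 (SE; BH-adjusted p = 4.5e-06 by edgeR's quasi-likelihood test). Differences between the genotypes were widespread. Of 14085 genes tested, 26.5% were called lower and 32.8% higher in Pdk4SMKO cells, 59.3% in all, where a call needs a BH-adjusted p below 0.05 together with a change of 2-fold or more (3733 lower and 4616 higher, or 2390 and 6184 when scaled by library size alone). For 81.8% of them the libraries of one genotype all lay above those of the other. Log2 CPM values correlated at 0.983 or more between libraries of a genotype and at 0.731 or less between genotypes, and *Actb*, the cytoskeletal actin often used as a reference gene, had 247 ± 24.0 and 2363 ± 116 CPM (SD, n = 3 each). The sources used here do not say how far the cultures of the genotypes shared their isolation and handling, so the deletion of *Pdk4* and a difference in the origin of the cultures cannot be told apart in any comparison that follows.

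RefSeq promoter windows, from 250 bases before to 50 bases after a gene start in GRCm38.p6, were found for 6 of the 9 genes. *Egr1*, *Egr3* and *Ier2* had none. The windows of *Egr2* and of the 3 NR4A genes are shown because they hold the motifs through which immediate early genes are known to be switched on, and because *Egr2* was called lower, *Nr4a2* and *Nr4a3* were called higher and *Nr4a1* was not called. Capitals mark a CArG box (among these windows only in *Egr2*) and each TGACG, the half-site of a cyclic AMP response element, read on either strand. The windows are chr10:67537619-67537918 (+) for *Egr2*, chr15:101266596-101266895 (+) for *Nr4a1*, chr2:57123954-57124253 (-) for *Nr4a2* and chr4:48045055-48045354 (+) for *Nr4a3*, each written 5′ to 3′ along the gene.
Egr2: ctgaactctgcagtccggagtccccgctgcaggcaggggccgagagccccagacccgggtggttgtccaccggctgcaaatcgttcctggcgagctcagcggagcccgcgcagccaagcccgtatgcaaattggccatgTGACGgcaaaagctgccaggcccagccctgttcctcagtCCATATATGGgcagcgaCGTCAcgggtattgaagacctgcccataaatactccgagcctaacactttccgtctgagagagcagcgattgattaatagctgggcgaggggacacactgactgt
Nr4a1: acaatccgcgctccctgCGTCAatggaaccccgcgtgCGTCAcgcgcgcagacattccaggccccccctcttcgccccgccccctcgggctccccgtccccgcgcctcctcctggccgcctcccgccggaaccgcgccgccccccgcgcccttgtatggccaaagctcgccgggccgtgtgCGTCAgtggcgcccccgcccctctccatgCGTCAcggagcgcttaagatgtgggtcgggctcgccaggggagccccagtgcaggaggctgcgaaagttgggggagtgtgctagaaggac
Nr4a2: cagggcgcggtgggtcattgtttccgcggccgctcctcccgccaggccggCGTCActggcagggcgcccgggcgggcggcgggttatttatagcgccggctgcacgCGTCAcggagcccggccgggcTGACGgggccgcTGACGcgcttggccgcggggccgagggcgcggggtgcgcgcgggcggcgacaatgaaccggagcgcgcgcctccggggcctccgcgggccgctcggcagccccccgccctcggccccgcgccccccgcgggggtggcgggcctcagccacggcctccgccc
Nr4a3: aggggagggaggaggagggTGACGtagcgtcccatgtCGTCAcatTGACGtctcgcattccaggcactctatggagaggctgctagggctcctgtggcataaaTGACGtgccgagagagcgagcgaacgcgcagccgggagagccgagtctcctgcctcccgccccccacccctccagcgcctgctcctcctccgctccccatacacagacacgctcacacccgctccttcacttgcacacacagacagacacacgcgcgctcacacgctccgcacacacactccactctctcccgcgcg

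The CArG box of *Egr2* lay from 72 to 63 bases before the gene start, between 2 TGACG matches. A CArG box on either strand was found in 1.63% of all 32851 windows of this length. RefSeq gives *Egr2* 5 starts, of which 4 had a CArG box in their windows, 3 of them the same box. *Nr4a1*, *Nr4a2* and *Nr4a3* each held 4 TGACG matches and no CArG box, whereas 20.8% of all windows held at least 1 TGACG and 0.231% held 4 or more. The full palindrome TGACGTCA, present in 1.79% of windows, was in none of the 6 genes' windows. The windows of *Ier3* and *Ier5* held neither motif, but *Ier3* had 1 and *Ier5* had 2 matches of GGGCGG, the GC box bound by SP1 (35.7% of all windows). *Nr4a1* also held GCGGGGGCG, a sequence bound by EGR proteins (2.91% of all windows), which overlaps a GC box. These letters were matched by sequence alone, and binding was not measured.

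**Figure D1:**
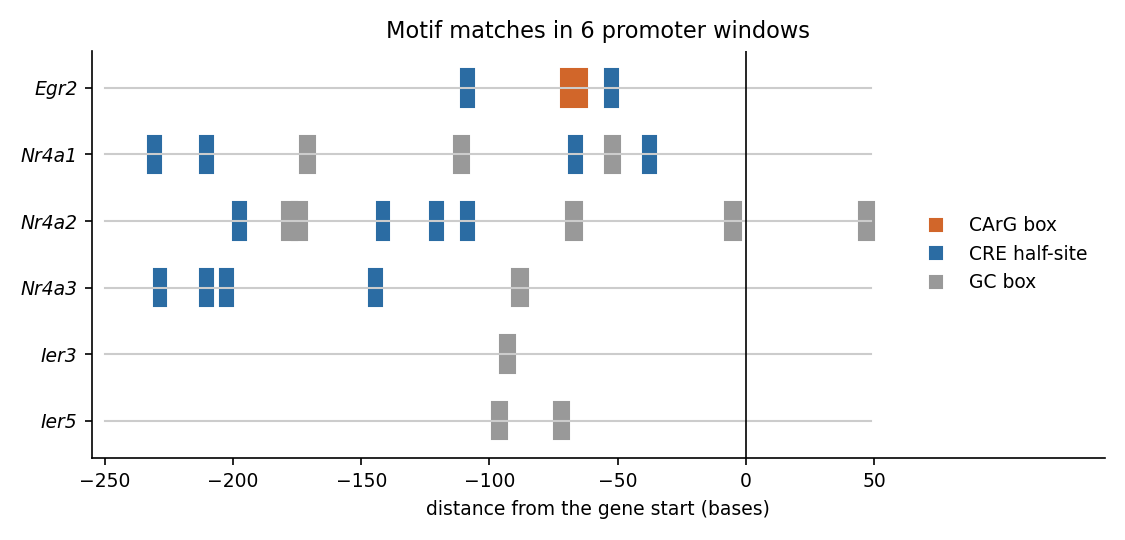
Matches of the CArG box (orange), the cyclic AMP response element half-site (blue) and the GC box (grey) by distance in bases from the gene start (vertical line), in 1 promoter window per gene. Each NR4A window holds 4 half-sites, the Egr2 window a CArG box between 2 half-sites, and the Ier3 and Ier5 windows GC boxes alone.

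All 9 genes passed the filter on low counts. *Egr3* did so through the Pdk4SMKO libraries alone, so that its higher level there was a condition of its being tested. *Nr4a3* reached the filter's limit in 2 of 3 Pdk4fl/fl libraries and in 3 of 3 Pdk4SMKO libraries. At the threshold, 4 of the 9 genes were lower and 3 were higher, against 26.5% and 32.8% of all genes tested. For 8 of the 9 the genotypes did not overlap, against 81.8% of all genes tested, and permuting the CPM values of each of these 8 over the libraries (exact, two-sided) yielded p = 0.1, the smallest that 3 against 3 libraries allow. With 59.3% of all genes called, such counts do not set the families apart, and each gene is described by its own values.

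**Figure D2:**
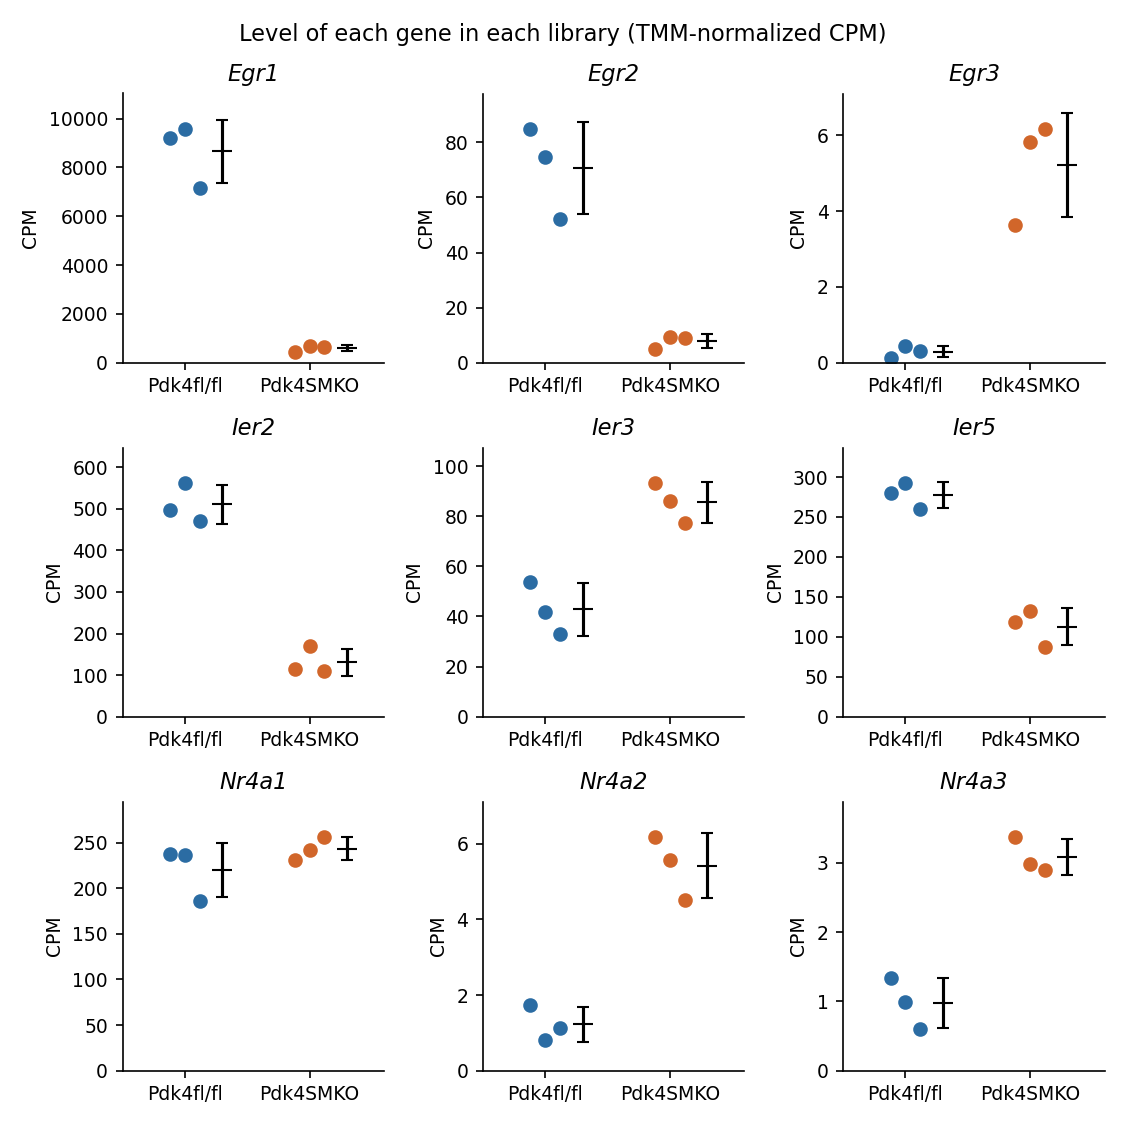
CPM of each gene in each library, on axes that start at 0, for Pdk4fl/fl (blue) and Pdk4SMKO (orange), with the mean and SD of 3 libraries as a black bar beside the points. The genotypes overlap for Nr4a1 and for no other gene.

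*Egr1* carried the largest difference in CPM among the 9 genes. It had 137996, 174678 and 94802 counts in the Pdk4fl/fl libraries, where it ranked between 4 and 5 among all genes by CPM, and 10168, 13982 and 13445 counts in the Pdk4SMKO libraries, where it ranked between 110 and 215. The levels were 8655 ± 1297 CPM (SD, n = 3) and 601 ± 135 CPM (SD, n = 3), so that Pdk4SMKO cells held 6.94% of the Pdk4fl/fl level. Every Pdk4SMKO library was far below every Pdk4fl/fl library. On the log2 scale the change was -3.85 ± 0.22 (SE; BH-adjusted p = 1.3e-07 by edgeR's quasi-likelihood test), larger in size than that of 89.4% of the genes tested. *Egr1* (MGP_C57BL6NJ_G0024661) spans 34367625 to 34372758 on chromosome 18 in the coordinates of the C57BL/6NJ annotation, which also gives the gene positions that follow.

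*Egr2*, known for its part in Schwann cell myelination and in lymphocytes, followed *Egr1* at a lower level. Its counts were 1275, 1363 and 689 in Pdk4fl/fl and 113, 189 and 183 in Pdk4SMKO libraries, or 70.7 ± 16.8 against 7.78 ± 2.45 CPM (SD, n = 3 each). The 2 ranges stood apart, the lowest Pdk4fl/fl library being at 52.1 and the highest Pdk4SMKO library at 9.41 CPM. This came to a log2 fold change of -3.19 ± 0.27 (SE; BH-adjusted p = 1.9e-06 by edgeR's quasi-likelihood test). The gene (MGP_C57BL6NJ_G0017719) lies on chromosome 10 from 69737514 to 69745556.

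*Egr3*, a relative with nearly the same DNA-binding zinc fingers, went the other way. Only 2, 8 and 4 reads were counted in the Pdk4fl/fl libraries, close to the limit of detection, against 83, 117 and 126 in the Pdk4SMKO libraries. The levels were 0.292 ± 0.153 and 5.22 ± 1.37 CPM (SD, n = 3 each). Over the summed counts of 14 and 326, Pdk4SMKO cells held 17.1 times as much *Egr3* mRNA (95% exact interval 10.0 to 31.6, counting error only). *Egr3* thus had a log2 fold change of 4.09 ± 0.44 (SE; BH-adjusted p = 1.2e-05 by edgeR's quasi-likelihood test), and its size rests on those few Pdk4fl/fl counts. Since *Egr3* passed the filter through the Pdk4SMKO libraries alone, this p belongs to a gene tested because it was higher there. *Egr3* (MGP_C57BL6NJ_G0021932) lies on chromosome 14 from 67613921 to 67616633. Another relative, *Egr4*, had 8 counts in 1 Pdk4fl/fl library and 0 in the other 5 libraries and was not tested.

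Within a library the ratio of 2 genes does not depend on the scaling between libraries. Per length (RPKM), *Egr2* was 71.0 to 266 times as abundant as *Egr3* in the Pdk4fl/fl libraries and 0.567 to 0.673 times as abundant in the Pdk4SMKO libraries, so that their order turned. The *Egr1* level stood above that of *Egr2* in every library, by 82.1 to 104 times in Pdk4fl/fl and 55.7 to 68.2 times in Pdk4SMKO on the RPKM scale. Both ratios separated the genotypes without overlap (p = 0.1 each by exact permutation, two-sided, which is as low as 3 against 3 libraries can give). For *Egr2* over *Egr3* that separation was favoured in advance, because *Egr3* passed the filter through its Pdk4SMKO counts alone. Its p is therefore no independent test of the turned order. The size of that ratio in Pdk4fl/fl cells rests on *Egr3* counts of 2, 8 and 4. *Egr1* made up 98.9% ± 0.127 of the summed EGR level per length in Pdk4fl/fl and 95.8% ± 0.327 in Pdk4SMKO cells (SD, n = 3 each), and that sum was 1952 ± 294 against 139.98 ± 31.7 RPKM.

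**Figure D3:**
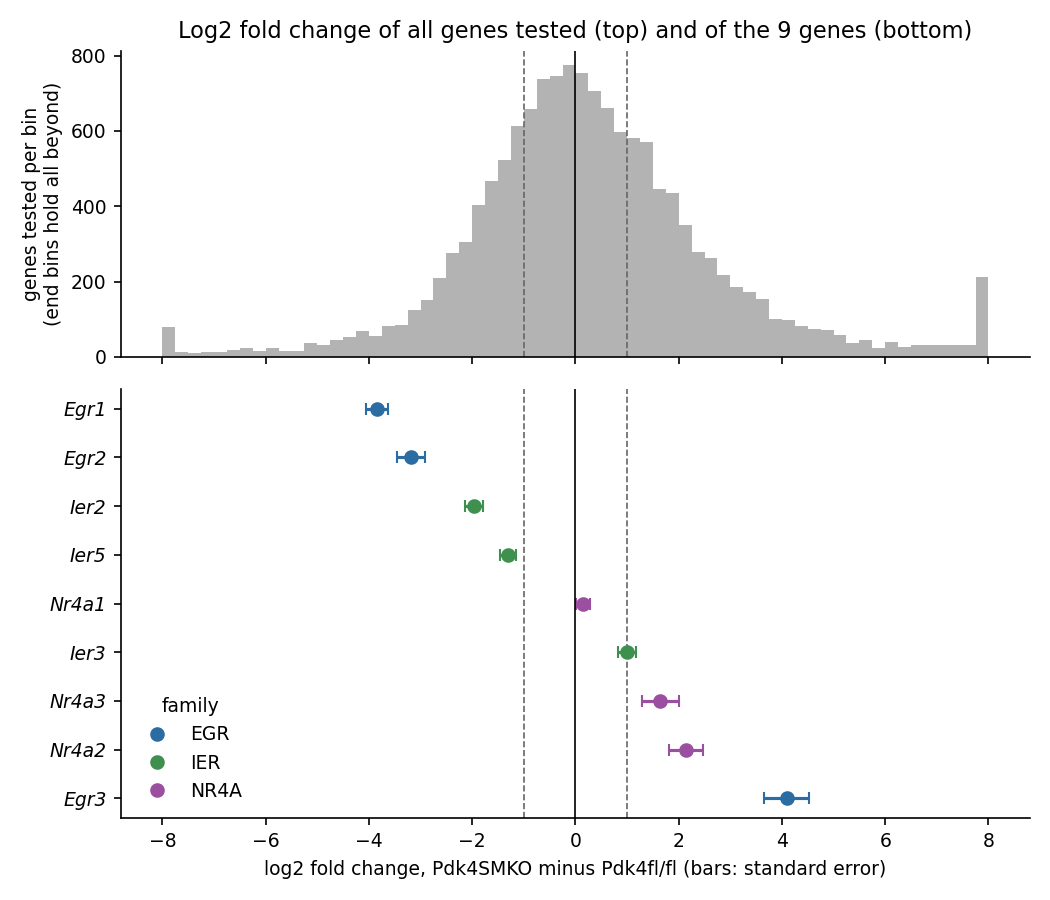
Histogram of the log2 fold changes of the 14085 genes tested (top) and the log2 fold change of each of the 9 genes with its standard error (bottom), coloured by family, with dashed lines at a fold change of 2. The EGR genes occupy both ends, from -3.85 for Egr1 to 4.09 for Egr3, and Nr4a1 lies near 0.

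Among the IER genes, *Ier2* and *Ier5* were lower in Pdk4SMKO cells, and *Ier3* lay at the limit of being called higher. *Ier2* had 7472, 10251 and 6211 counts in Pdk4fl/fl and 2604, 3392 and 2236 in Pdk4SMKO libraries, or 510 ± 47.6 against 131 ± 32.9 CPM (SD, n = 3 each). The lowest Pdk4fl/fl library, at 470.0 CPM, lay well above the highest Pdk4SMKO library, at 169 CPM. In log2 terms *Ier2* changed by -1.96 ± 0.18 (SE; BH-adjusted p = 3.5e-06 by edgeR's quasi-likelihood test). *Ier2* (MGP_C57BL6NJ_G0034360) lies on chromosome 8 from 88855110 to 88856631.

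*Ier5*, whose protein is known to work with the heat shock factor HSF1 and with the phosphatase PP2A, had 4201, 5336 and 3432 counts in Pdk4fl/fl and 2703, 2655 and 1785 in Pdk4SMKO libraries. The levels were 278 ± 16.8 and 113 ± 22.9 CPM (SD, n = 3 each), again without overlap. Its log2 change of -1.30 ± 0.16 (SE; BH-adjusted p = 2.8e-05 by edgeR's quasi-likelihood test) was near the middle of all genes by size, since 50.1% of the genes tested changed less. With library size alone it was -0.70, short of a fold change of 2. *Ier5* (MGP_C57BL6NJ_G0017012) lies on chromosome 1 from 165512540 to 165515815. Its paralogue *Ier5l* was called higher, at 27.7 ± 3.39 against 74.0 ± 28.5 CPM (SD, n = 3 each, log2 fold change 1.42, adjusted p = 0.000315, edgeR).

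*Ier3* was not called. It had 805, 762 and 434 counts in Pdk4fl/fl and 2128, 1727 and 1574 in Pdk4SMKO libraries, or 42.8 ± 10.4 against 85.5 ± 8.11 CPM (SD, n = 3 each). Every Pdk4SMKO library lay above every Pdk4fl/fl library, the nearest being at 77.2 and 53.7 CPM. In log2 terms the difference was 0.9986 ± 0.18 (SE; BH-adjusted p = 0.000419 by edgeR's quasi-likelihood test), so the p passed and the fold change missed the limit of 2 by less than its standard error. Of the 14 alternative settings tried, 9 called it higher, and the log2 fold change lay between 0.83 and 1.598. Among the 9 is the setting without a fold limit, which reuses the same fit and was bound to call it. *Ier3* (MGP_C57BL6NJ_G0024054) lies on chromosome 17 from 37487770 to 37489009.

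The make-up of the IER family shifted with these changes. On the RPKM scale *Ier2* was 6.90 to 10.6 times as abundant as *Ier3* in Pdk4fl/fl libraries and 0.909 to 1.46 times in Pdk4SMKO libraries. *Ier3* took 8.24% ± 1.81 of the summed IER level per length in Pdk4fl/fl and 39.0% ± 4.86 in Pdk4SMKO cells (SD, n = 3 each), whereas the share of *Ier5* was 18.5% ± 0.493 and 17.5% ± 1.36. The summed level was 458 ± 39.6 RPKM in Pdk4fl/fl and 196 ± 30.1 RPKM in Pdk4SMKO cells (SD, n = 3 each).

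Of the NR4A genes, *Nr4a1* (Nur77), known in smooth muscle as a brake on proliferation, had 3560, 4313 and 2451 counts in Pdk4fl/fl and 5268, 4864 and 5228 in Pdk4SMKO libraries. After normalization the levels were 220 ± 29.8 and 243 ± 12.6 CPM (SD, n = 3 each), and the ranges overlapped, from 185 to 237 and from 231 to 256 CPM. Its log2 difference was 0.15 ± 0.13 (SE; BH-adjusted p = 0.319 by edgeR's quasi-likelihood test; exact two-sided permutation test, p = 0.4). It stayed under a fold change of 2 in all 14 alternatives. The comparison rests on TMM factors that split by genotype, 0.784 to 0.838 in Pdk4fl/fl and 1.21 to 1.26 in Pdk4SMKO libraries. The adjusted p of *Nr4a1* passed 0.05 with upper-quartile factors (0.36, adjusted p = 0.026, edgeR) and with library size alone (0.75, adjusted p = 0.00068, edgeR), while the median over all genes tested moved from 0.12 to 0.72 in the latter setting. *Nr4a1* (MGP_C57BL6NJ_G0022782) lies on chromosome 15 from 107157537 to 107165506.

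*Nr4a2* (Nurr1), best known from dopamine neurons, was scarce in both genotypes and higher in Pdk4SMKO cells. It had 26, 15 and 15 counts in Pdk4fl/fl and 141, 112 and 92 in Pdk4SMKO libraries, or 1.23 ± 0.462 against 5.43 ± 0.848 CPM (SD, n = 3 each). No Pdk4fl/fl library was above 1.73 and no Pdk4SMKO library below 4.51 CPM. *Nr4a2* changed by 2.15 on the log2 scale ± 0.33 (SE; BH-adjusted p = 0.000163 by edgeR's quasi-likelihood test). *Nr4a2* (MGP_C57BL6NJ_G0026160) lies on chromosome 2 from 58349927 to 58368669.

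*Nr4a3* (Nor1) showed the same direction at a still lower level. Its counts were 20, 18 and 8 in Pdk4fl/fl and 77, 60 and 59 in Pdk4SMKO libraries, or 0.976 ± 0.364 against 3.09 ± 0.258 CPM (SD, n = 3 each), without overlap. For *Nr4a3* the log2 fold change came to 1.65 ± 0.35 (SE; BH-adjusted p = 0.0015 by edgeR's quasi-likelihood test). Because *Nr4a1* held 99.5% ± 0.146 of the summed NR4A level per length in Pdk4fl/fl and 98.1% ± 0.336 in Pdk4SMKO cells (SD, n = 3 each), the sum differed little, at 89.3 ± 12.1 and 100.2 ± 4.86 RPKM (SD, n = 3 each). The ratio of *Nr4a2* to *Nr4a3* on the RPKM scale was 1.21 to 2.73 in Pdk4fl/fl and 2.27 to 2.72 in Pdk4SMKO libraries, overlapping ranges (exact two-sided permutation test, p = 0.4). *Nr4a3* (MGP_C57BL6NJ_G0028690) lies on chromosome 4 from 48142176 to 48183404.

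Ordered by level per length, *Egr1* came first in both genotypes, at 1931 ± 289 RPKM in Pdk4fl/fl and 134 ± 30.1 RPKM in Pdk4SMKO cells (SD, n = 3 each). In Pdk4fl/fl cells it was followed by *Ier2* at 335, *Nr4a1* at 88.9, *Ier5* at 84.7, *Ier3* at 37.8 and *Egr2* at 20.8 RPKM. There *Nr4a1* and *Ier5* overlapped, as did the 3 scarce genes *Nr4a2*, *Egr3* and *Nr4a3*, at 0.303, 0.206 and 0.165 RPKM. In Pdk4SMKO cells the range at the top was narrower. *Egr1* overlapped *Nr4a1* at 98.3 RPKM, *Nr4a1* overlapped *Ier2* at 86.0 RPKM, and *Ier2* overlapped *Ier3* at 75.6 RPKM. Within single libraries *Egr1* was above *Nr4a1* in 3 of 3, whereas *Nr4a1* was above *Ier2*, and *Ier2* above *Ier3*, in 2 of 3. *Ier5* at 34.4 RPKM lay below them, and *Egr3*, *Egr2*, *Nr4a2* and *Nr4a3* followed at 3.68, 2.29, 1.34 and 0.521 RPKM, with overlap between *Egr3* and *Egr2*, although *Egr3* was above *Egr2* in 3 of 3 libraries, and between *Egr2* and *Nr4a2*, in the order of their means in 2 of 3.

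**Figure D4:**
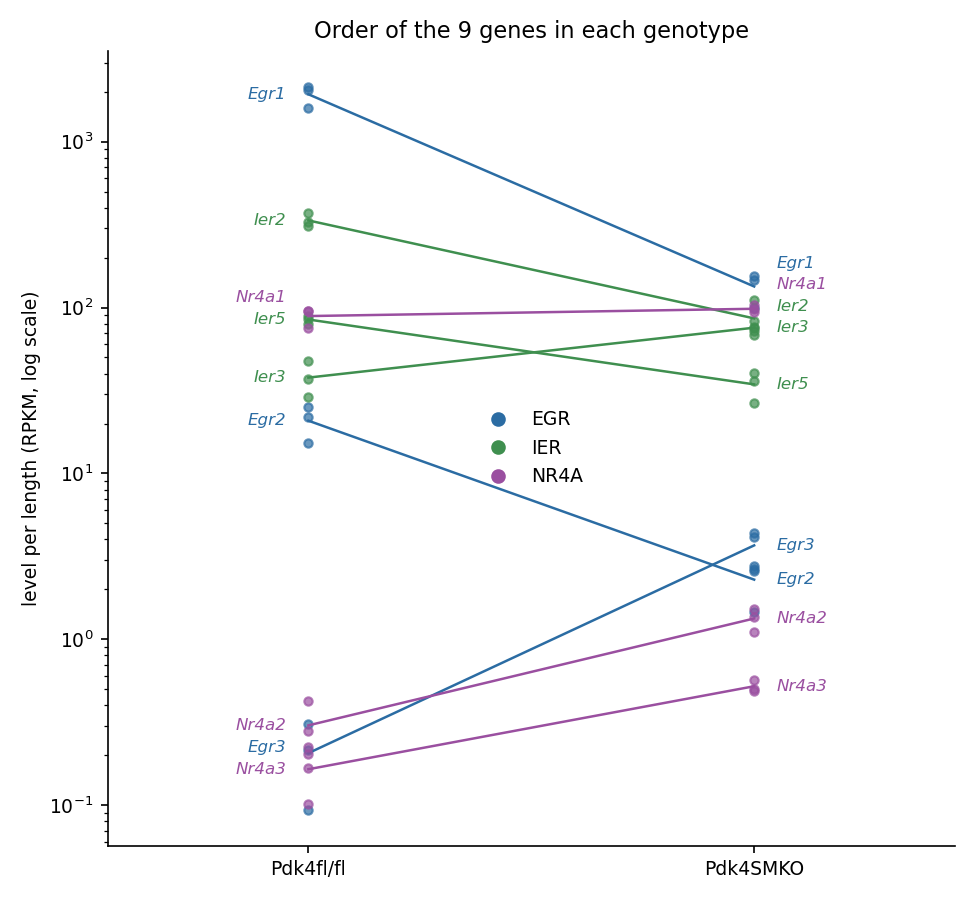
Level per length (RPKM, log scale) of each gene in Pdk4fl/fl and Pdk4SMKO cells, with points for the 3 libraries of a genotype and lines between the means, coloured by family. Egr2 and Egr3 change places, the lead of Egr1 over Nr4a1 shrinks from 1931 against 88.9 to 134 against 98.3 RPKM, and the line of Nr4a1 is nearly level.

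The 9 genes lie on 9 different chromosomes, and the span of none overlaps that of another gene in the table. They are short, with a median span of 5134 bases against 26782 bases for the 12359 protein-coding genes tested, while their median gene model length of 3276 bases is closer to the 4008 bases of those genes.

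The other immediate early genes were listed by their known induction without new protein synthesis. Of 33 such genes, 32 were tested, 15 were called lower and 10 higher, with a median log2 fold change of -0.68 against 0.12 over all genes tested. These counts, and those of the lists and markers that follow, stand beside 26.5% lower and 32.8% higher among all genes tested. They went both ways, as the EGR, IER and NR4A genes did. *Jun*, a subunit of the AP-1 factor, fell from 2869 ± 515 to 36.9 ± 5.21 CPM (SD, n = 3 each, log2 fold change -6.28, adjusted p = 1.2e-08, edgeR). *Atf3*, a stress-induced factor of the CREB family, fell from 1562 ± 106 to 52.9 ± 3.51 CPM (SD, n = 3 each, log2 fold change -4.88, adjusted p = 9.7e-09, edgeR). *Ctgf* (*Ccn2*), a matricellular protein, rose from 29.2 ± 5.85 to 1391 ± 459 CPM (SD, n = 3 each, log2 fold change 5.58, adjusted p = 6.3e-08, edgeR).

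Of 30 upstream regulators, 28 were tested, 5 were called lower and 11 higher (median log2 fold change 0.07). *Mapk3*, a kinase activated by growth factors, had 196 ± 5.50 and 114 ± 4.37 CPM (SD, n = 3 each), a log2 fold change of -0.78 and so under a fold change of 2 (adjusted p = 6.8e-05, edgeR). *Srf*, whose protein binds the CArG box, rose from 27.1 ± 5.38 to 88.5 ± 12.6 CPM (SD, n = 3 each, log2 fold change 1.70, adjusted p = 7.6e-06, edgeR). The partners of SRF in the list went both ways. *Elk4* rose with a log2 fold change of 2.27 and *Mkl2* (*Mrtfb*) with one of 2.30 (adjusted p = 3.6e-07 and 2.9e-07, edgeR), and *Elk3* and *Mkl1* (*Mrtfa*) were also called higher (1.29 and 1.24). *Elk1* fell from 73.6 ± 9.72 to 24.5 ± 0.657 CPM (SD, n = 3 each, log2 fold change -1.59, adjusted p = 2.2e-06, edgeR). *Creb1* had 43.5 ± 1.34 and 47.9 ± 8.31 CPM (SD, n = 3 each, log2 fold change 0.14, adjusted p = 0.386, edgeR), and *Crtc2*, a coactivator of CREB, fell with a log2 fold change of -2.22 (adjusted p = 2.4e-07, edgeR). *Agtr1a*, the main vascular receptor of Ang II, had 1, 0 and 9 counts in Pdk4fl/fl and 0, 8 and 10 in Pdk4SMKO libraries, too few to test.

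Among 10 partners and corepressors, 9 were tested, 2 were called lower and 1 higher. *Nab1* and *Nab2*, corepressors of the EGR proteins, had log2 fold changes of -0.08 and 0.24 (adjusted p = 0.515 and 0.291, edgeR). *Rxra*, a nuclear receptor that pairs with NR4A1 and NR4A2, rose with a log2 fold change of 1.14 (adjusted p = 0.000105, edgeR). *Hsf1*, a partner of IER5, fell with a log2 fold change of -1.46, and *Ppp2ca*, the catalytic subunit of PP2A, with one of -1.35 (adjusted p = 1e-06 and 4e-06, edgeR).

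Of 16 genes known as targets of EGR1, 15 were found and tested, 4 were called lower and 6 higher, with a median log2 fold change of 0.73. *Fgf2*, a growth factor, rose from 4, 1 and 0 to 1059, 977 and 874 counts (adjusted p = 2.8e-08, edgeR), with a Pdk4fl/fl level too near 0 for a firm fold change. It passed the filter through the Pdk4SMKO libraries alone, so its higher level there was a condition of its being tested. *F3* (tissue factor) rose from 10.1 ± 1.17 to 64.8 ± 7.47 CPM (SD, n = 3 each, log2 fold change 2.68, adjusted p = 1.5e-07, edgeR). *Icam1*, an adhesion molecule, fell from 111 ± 17.1 to 21.4 ± 6.19 CPM (SD, n = 3 each, log2 fold change -2.37, adjusted p = 3.2e-06, edgeR). The number of targets called higher was 10 with library size alone.

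**Figure D5:**
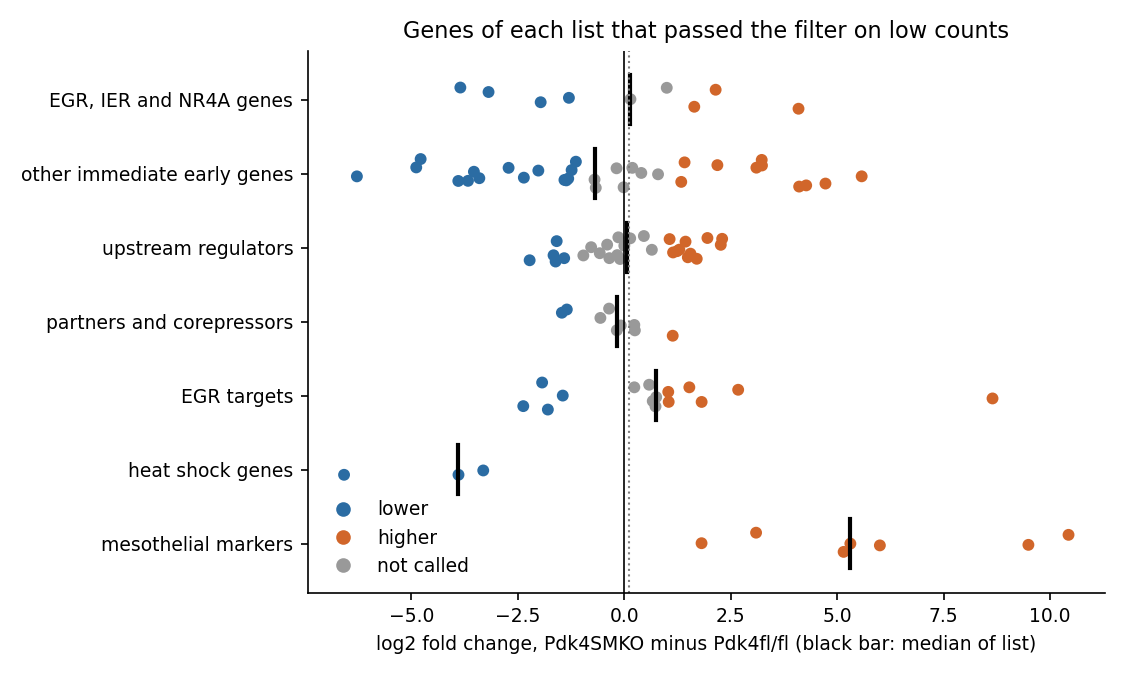
Log2 fold change of each tested gene in 7 lists, coloured by call (blue lower, orange higher, grey not called), with a black bar at the median of the list and a dotted line at the median of all genes tested, 0.12. The EGR, IER and NR4A genes, the other immediate early genes, the upstream regulators and the EGR1 targets spread to both sides, whereas the 3 heat shock genes lie on the lower and the 7 mesothelial markers on the higher side. Among these markers, Upk1b, Krt18, Wt1 and Lrrn4 were tested only because of their Pdk4SMKO counts.

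Markers of cell type and stress moved with the genotype beside these genes. Smooth muscle markers were present in both genotypes, with summed levels of 785 to 811 CPM in Pdk4fl/fl and 723 to 954 CPM in Pdk4SMKO libraries, 3 of 8 called lower (*Smtn*, *Tagln* and *Cnn1*) and 4 higher (*Des*, *Lmod1*, *Myh11* and *Acta2*). *Myh11*, the defining marker of the contractile state and the gene whose promoter drives Cre, had only 0.613 and 2.39 CPM on average. Heat shock genes, induced by protein stress, were lower for all 3 found of 6 (*Hspa1b*, *Dnajb1* and *Hsph1*), with sums of 7623 to 12553 CPM in Pdk4fl/fl and 186 to 235 CPM in Pdk4SMKO libraries. Mesothelial markers were higher for 7 of 7 tested of 8 (*Upk1b*, *Krt18* and *Msln* most), with sums of 74.2 to 99.99 CPM and 723 to 1325 CPM. Fibroblast markers were higher for 3 (*Col1a1*, *Dcn* and *Lum*) and lower for 1 of 6, with sums of 626 to 855 CPM and 5152 to 7054 CPM. *Upk1b*, *Krt18*, *Wt1*, *Lrrn4*, *Lum* and *Des* were below the filter's limit in every Pdk4fl/fl library. For these genes a higher level in Pdk4SMKO cells was a condition of their being tested.

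Endothelial markers were lower for the 2 tested of 6 (*Kdr* and *Vwf*), with sums of 13.7 to 23.1 CPM in Pdk4fl/fl and 2.89 to 5.40 CPM in Pdk4SMKO libraries. Macrophage markers were called higher for 5 and lower for 1 (*Cd68*) of 6 tested, with sums of 21.4 to 38.0 CPM and 9.71 to 30.5 CPM, and *Adgre1*, *C1qa*, *C1qb* and *Tyrobp* were at 0 in every Pdk4fl/fl library. *Csf1r* had 2, 4 and 2 counts there. These 5 genes passed the filter through the Pdk4SMKO libraries alone, so a higher level there was a condition of their being tested. Proliferation markers had sums of 369 to 445 CPM and 245 to 411 CPM, with 1 of 6 called lower (*Ccnb1*) and 1 higher (*Ccna2*). *Xist*, the RNA of the inactive X chromosome, had 3, 4 and 5 counts in Pdk4fl/fl and 610, 347 and 321 in Pdk4SMKO libraries, although the study states that its mice were male and the Cre is Y-linked, so the cultures of the genotypes may differ in origin. The part of these differences in the levels of the EGR, IER and NR4A genes was not tested, and in such bulk samples fewer cells of a type cannot be told apart from less RNA per cell.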

How the data were processed

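Gene-level read counts, not normalized, were deposited by the authors as a single table that covers the 6 libraries (paired-end reads of 150 bases). The build list in the labels names GRCm39, whereas the gene identifiers, all but 625, are those of the C57BL/6NJ strain annotation. The paper and the labels name different library kits. The aligner, the counting program and the use of strand are not given in the sources used here.

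Counts were filtered with filterByExpr, normalized by TMM and tested on genotype alone with the quasi-likelihood test of edgeR 4.0.16 in R 4.3.3, with Benjamini-Hochberg adjustment over all 14085 genes tested. Calls required an adjusted p below 0.05 and a 2-fold difference or more. The standard error of a log2 fold change was taken from the F statistic. RPKM is CPM divided by the gene model length of the table in kilobases. The fit was tested on simulated data first, and recovered 192 of 195 tested genes changed 4-fold, with 1 false call when 13983 genes were tested. That simulation changed only 200 genes, equally up and down, with the same dispersion for all genes. Here 59.3% of genes were called, and TMM factors were 0.784 to 0.838 in Pdk4fl/fl and 1.21 to 1.26 in Pdk4SMKO libraries. The simulation therefore cannot test the calls or the normalization under differences this widespread.

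The genes named are the 9 listed, *Pdk4*, the 3 called genes of each other list with the largest change, no overlap and at least 5 CPM, and a few regulators (*Srf*, *Mapk3*, *Creb1*, *Agtr1a*, *Nab1*, *Nab2*, *Rxra*). A further regulator in this rule is not reported here. *Egr4*, *Ier5l*, *Elk1*, *Elk3*, *Mkl1*, *Cnn1*, *Des*, *Acta2*, *Myh11*, *Xist*, *Actb*, *Vwf*, *Wt1*, *Lrrn4*, *Csf1r* and the 4 macrophage markers at 0 were named after their values were seen. Members and lists were chosen with earlier results of these data known. Of 145 listed symbols, 140 were matched, 4 by an older symbol. Alternatives were DESeq2 1.42.0, scaling by RLE, by upper quartile or by library size, other filters, no fold limit, the replicate number as a block and leaving out each library.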

Additional observations from a re-analysis of the deposited data

How the results depend on the processing

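Across 14 alternatives, *Egr1*, *Egr2*, *Ier2* and *Nr4a2* kept their direction and their call in all, and *Egr3* and *Nr4a3* in the 13 that gave them a value, since neither has 10 counts in every library. The setting without a fold limit reuses the main fit, so no call could be lost there. *Nr4a1* was never called. The log2 fold change of *Ier5* lost its call with library size alone (-0.70). *Ier3* was called higher with upper-quartile factors (1.21), library size alone (1.598), no filter (1.05), at least 10 counts in every library (1.10) or no fold limit (0.9986), and without Pdk4fl/fl replicate 1 (1.19), Pdk4SMKO replicate 2 (1.01) or Pdk4SMKO replicate 3 (1.08). With each library left out in turn it ranged from 0.83 to 1.19. With library size alone, 2390 genes were called lower, and the lower calls fell to 3 among upstream regulators and 0 among partners and corepressors, while 10 EGR1 targets were higher, and the cause was not tested. Without a fold limit, 10 upstream regulators were lower. Partners and corepressors had 0 to 1 higher calls with each library left out, the 1 gene (*Rxra*) being lost without Pdk4fl/fl replicate 3.

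The replicate numbers are shared by the genotypes. Deviations from the genotype means correlated at 0.0486, 0.107 and 0.257 between libraries of the same number, and not every library correlated best with its own number, so the numbers were not taken as pairs. With the replicate block, *Ier3* was called (1.02), 3704 genes were lower and 4577 higher, and no other call of the 9 genes changed. Depth limits *Egr3*, *Nr4a2* and *Nr4a3*, whose Pdk4fl/fl counts were 2 to 26 per library.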

Other observations

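Within a genotype, the 9 genes did not vary as 1 block. In deviations from the genotype means of log2 CPM over the 6 libraries, 26 of 36 pairs of these genes had a correlation above 0, with a median of 0.31. *Egr1* and *Egr2* were both lowest in replicate 3 of Pdk4fl/fl and in replicate 1 of Pdk4SMKO, whereas *Ier2* and *Ier5* were lowest in replicate 3 of both genotypes. The genes whose deviations were most like the mean of the 9, of 8520 compared, were *Znrf3* (0.9986), *Ddx19a* (0.998), *Pcdhgc3* (0.996), *Pacs1* (0.996) and *Fgfr1* (0.9955). These points share their libraries and depth, and with 6 libraries and so many genes, correlations of this size are a description.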
